A study of Bos taurus with 8 samples.

Results

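The aryl hydrocarbon receptor and a small set of its partners and textbook targets were followed here in the bovine rumen, the forestomach in which feed is fermented. The 9 genes (AHR, ARNT, AHRR, TIPARP, CYP1A1, CYP1B1, NQO1, UGT1A6 and ALDH3A1), of 33132 in the count table, were found by symbol. All 9 passed the filter on low counts. The list was chosen from these data with the contrast between steers and calves known, so the values of its genes in that contrast are given as a description, without a p-value. Rumen RNA of angus cross cattle was sequenced, 4 of them newborn male calves and 4 of them adult steers, which are castrated males, with 1 library per animal. Age and castration differ together between the groups, no label gives diet or a batch, and no treatment or altered gene was named.

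The receptor is a transcription factor of the basic helix-loop-helix PAS family that waits in the cytosol bound to the chaperone HSP90. Planar aromatic compounds, plant products and indoles made from tryptophan, some of them by microbes, bind it and send it to the nucleus, where it pairs with ARNT and binds DNA beside genes for detoxification enzymes. AHRR and TIPARP are induced by the receptor and restrain it. In barrier epithelia such as skin and gut the pathway is known for sensing compounds from food and from resident microbes.

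Library totals ran from 42322022 to 54449684 counts. Levels are CPM, the counts of a gene relative to its library's sum, on library sizes scaled by the trimmed mean of M values (TMM), and log2 changes are steer minus calf from edgeR, with their standard error (SE). The libraries held squamous epithelium and muscle in unequal amounts. Basal keratinocyte markers (10 of 10 in the table) summed to 11955 to 17319 CPM in calves and 8609 to 16333 CPM in steers. Suprabasal squamous markers (9 of 10 in the table, with IVL and DSG3 at 0) summed to 38514 to 90692 CPM in calves and 1026 to 2847 CPM in steers. The calf sum is mostly the keratins KRT4 and KRT13, and KRT4 was at 0 to 3.40 CPM in steers. Of the 7 suprabasal markers tested 5 were lower in steers and 0 higher. EVPL fell by only 1.21 on the log2 scale, and PKP1 (-0.57) and KRT10 (-0.21) did not pass. Smooth muscle markers (10 of 10) summed to 5561 to 16907 CPM in calves and 10884 to 109270 CPM in steers. Fibroblast markers (10 of 10) summed to 1842 to 5348 against 686 to 1588 CPM, endothelial markers (10 of 10) to 329 to 694 against 248 to 331 CPM, leukocyte markers (10 of 10) to 73.5 to 460 against 208 to 404 CPM, and markers of enteric neurons and glia (10 of 10) to 52.1 to 73.98 against 22.4 to 41.7 CPM, in calves and steers. The leukocyte sum is mostly CD74. Of the 8 leukocyte markers tested, 5 were higher in steers and 0 lower. These were PTPRC, CD3E, CD2, CSF1R and ITGAX, by 2.90, 3.84, 3.70, 1.35 and 2.84 on the log2 scale. For smooth muscle 4 of 9 tested were higher and 0 lower. For fibroblasts and for endothelium 3 of 10 were lower and 0 higher. Of 10 neuron and glia markers 5 were lower and 0 higher, and of 10 basal markers 2 were higher and 1 lower. Over all tested genes 7.7% were higher and 9.16% lower, at an adjusted p under 0.05 in edgeR. In whole tissue, fewer cells of a type and less RNA per cell cannot be told apart, and the part of tissue makeup in the values below was not tested except where stated.

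The genes did not move as 1 group. The receptor, its partner and both repressors had overlapping levels in calves and steers, CYP1A1, NQO1 and UGT1A6 were higher in every steer than in any calf, ALDH3A1 was lower in every steer, and CYP1B1 was high in 1 steer. The plot of CPM by library shows each animal. By edgeR's quasi-likelihood test with Benjamini-Hochberg adjustment (adjusted p under 0.05), 4 of the 9 were past the threshold, 3 higher and 1 lower in steers. Of the 16326 genes tested, 16.9% were past it, 7.7% higher and 9.16% lower. Calf and steer CPM were fully apart for 4 of the 9 genes, and for 23.3% of all tested genes. Since the contrast was known when the genes were chosen, nothing is read from these shares. The median log2 change was 0.42 over the 9 genes and 0.04 over all tested genes, and 7 of the 9 values were positive against 52.4% of all tested genes.

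**Figure D1:**
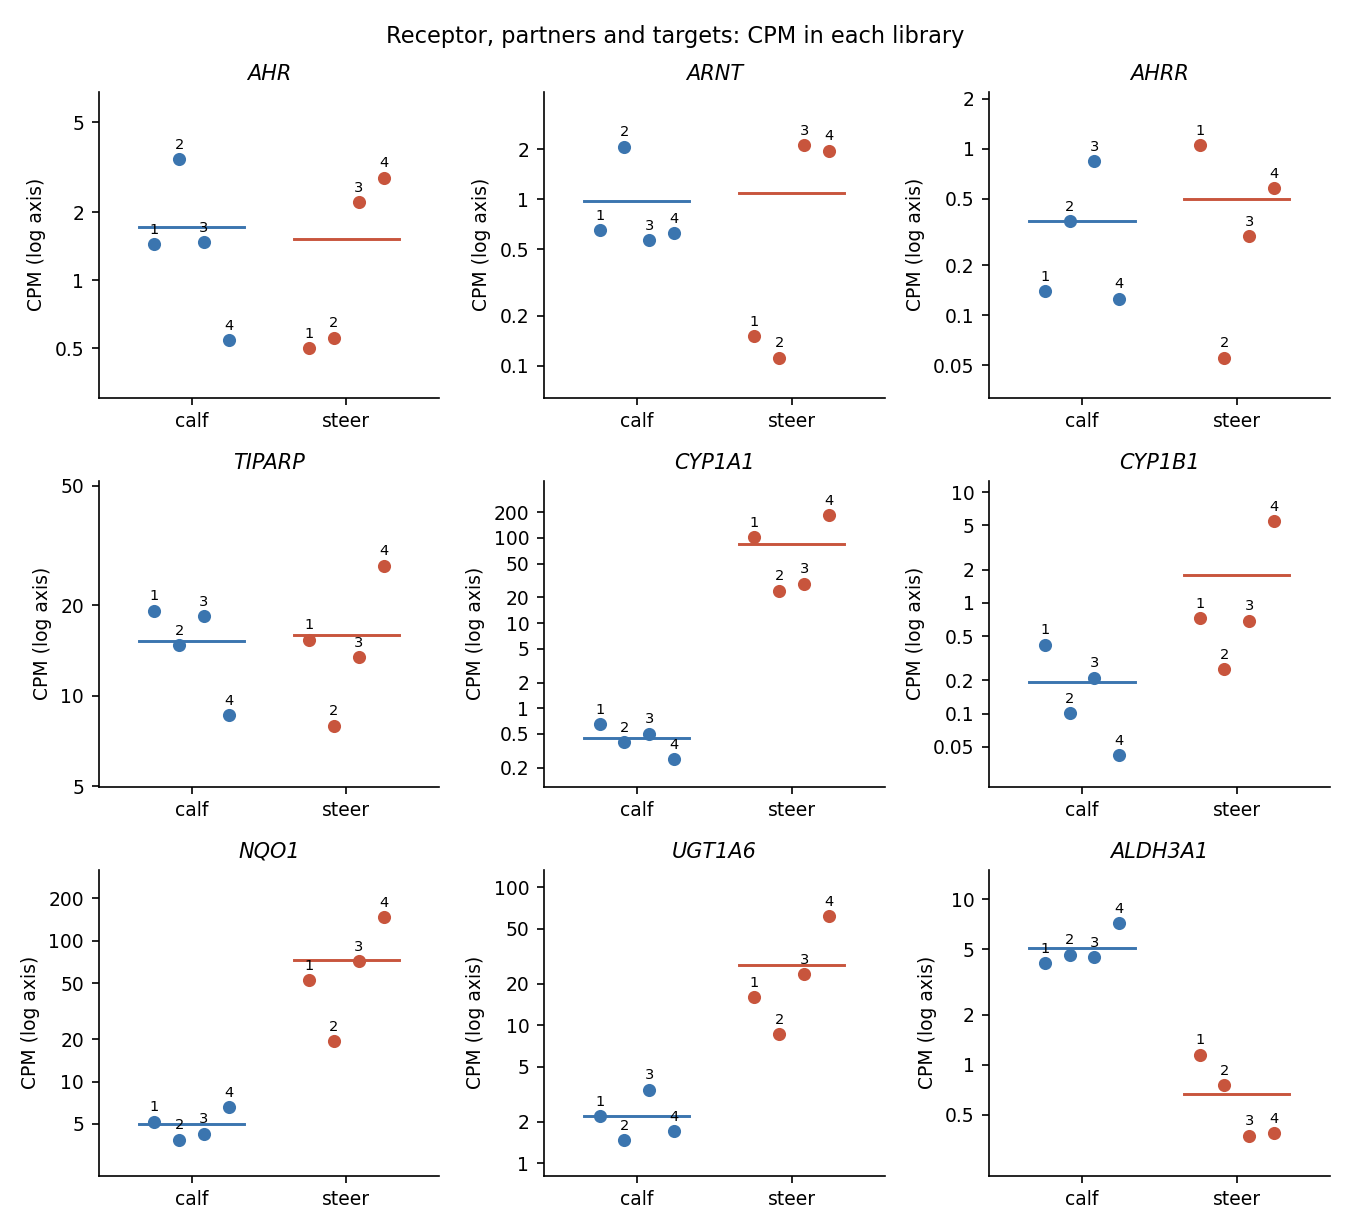
CPM of each of the 9 genes (log axis, 1 panel per gene) in the 4 calves (blue) and 4 steers (red), with the library number above each point and the group mean as a line. CYP1A1 lies between 0.251 and 0.652 CPM in calves and between 24 and 185.9 CPM in steers, while AHR, ARNT, AHRR and TIPARP overlap.

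AHR itself was a gene of low level in both groups. It had 1.44, 3.43, 1.47 and 0.544 CPM in calves 1 to 4, and 0.50, 0.557, 2.22 and 2.84 CPM in steers 1 to 4. Calf 2, steer 3 and steer 4 were the high libraries, steers 1 and 2 were as low as calf 4, and the groups overlapped. The means were 1.72 ± 1.22 CPM in calves and 1.53 ± 1.18 CPM in steers (SD, n = 4 each). The log2 change was -0.17 ± 0.69 (SE), and it took either sign when 1 library was left out, from -0.65 without steer 4 to 0.41 without calf 2. AHR was counted on chromosome 4 from 25805796 to 25855901, a span of 50106 bases with its introns, and 0.275% of that span was shared with another gene.

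ARNT, which encodes the nuclear partner, followed the same libraries. Its level was 0.652, 2.07, 0.568 and 0.627 CPM in calves 1 to 4 and 0.150, 0.111, 2.12 and 1.96 CPM in steers 1 to 4. The high libraries were again calf 2, steer 3 and steer 4, and the other 2 steers were below every calf. The log2 change was 0.16 ± 0.90 and ran from -0.38 to 0.83 with 1 library left out. Reads in the 36.3% of its span shared with CTSK, which encodes cathepsin K, were dropped in counting, so the value covers the rest of the gene (chromosome 3, 19914284 to 19949923). The libraries that were high for these genes were also those in which genes of long span were relatively high. The slope of a library's log2 deviations on gene span was 0.0705 in calf 2, 0.0411 in steer 3 and 0.0270 in steer 4, against -0.0691 to 0.000930 in the other 5 libraries. With this slope as a covariate, an alternative added after seeing the data, the log2 change was -0.24 for AHR and -0.25 for ARNT, so that of ARNT changed sign.

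Both repressors overlapped between the groups, and for both steer 2 and calf 4 were the lowest of their groups. AHRR, a relative of the receptor that competes for ARNT, had 0.140, 0.368, 0.842 and 0.125 CPM in calves 1 to 4 and 1.05, 0.0557, 0.298 and 0.579 CPM in steers 1 to 4. These levels rest on 2 to 42 counts per library, and 3 counts correspond to 0.0502 to 0.0835 CPM. Steer 2, with 2 counts, was under its own floor of 0.0835 CPM. Calf 3 and steer 1 were the highest of their groups, the groups overlapped, and the log2 change was 0.42 ± 0.86 (-0.22 to 1.20 with 1 library left out). TIPARP, an enzyme that adds ADP-ribose to the receptor, had the log2 change nearest to 0. Its values of 19.2, 14.8, 18.4 and 8.62 CPM in calves 1 to 4 and 15.4, 7.96, 13.4 and 27.1 CPM in steers 1 to 4 overlapped, with a log2 change of 0.07 ± 0.38 (-0.31 to 0.30 with 1 library left out). AHRR was counted on chromosome 20 from 71700941 to 71766988 and TIPARP on chromosome 1 from 110928197 to 110955891, and neither span was shared with another gene.

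CYP1A1, the cytochrome P450 that is the classical readout of receptor activity and oxidises many of its ligands, had the widest gap between the groups. Calves 1 to 4 had 0.652, 0.402, 0.505 and 0.251 CPM, from 12 to 28 counts. Steers 1 to 4 had 102.1, 24, 29.0 and 185.9 CPM, from 862 to 10604 counts. Every steer was far above every calf, and steers 1 and 4 were well above steers 2 and 3. The means were 0.452 ± 0.169 CPM in calves and 85.3 ± 76.0 CPM in steers (SD, n = 4 each), a ratio of 188. The log2 change was 7.56 ± 0.80, with values from 6.84 without steer 4 to 7.87 without steer 2. The gene was counted on chromosome 21 from 33949125 to 33955228, with none of its span shared.

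The related CYP1B1, a P450 of epithelia and stroma, was different. It had 0.419, 0.100, 0.210 and 0.0418 CPM in calves 1 to 4 and 0.725, 0.251, 0.689 and 5.49 CPM in steers 1 to 4. Steer 4 stood far above the rest, and steer 2 lay below calf 1, so the groups overlapped. Calf libraries held 2 to 18 counts and the lowest steer 9. The log2 change was 3.22 ± 1.04 with all libraries and 1.54 without steer 4. The gene was counted on chromosome 11 from 20470965 to 20476460, with none of its span shared.

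NQO1, a quinone reductase under the control of both the receptor and NRF2, was high in all steers. Its level was 5.19, 3.86, 4.27 and 6.57 CPM in calves 1 to 4 and 52.6, 19.3, 71.3 and 146.8 CPM in steers 1 to 4. The lowest steer was above the highest calf, and steer 4 was the highest library. Means were 4.97 ± 1.20 and 72.5 ± 54.0 CPM (SD, n = 4 each), a ratio of 14.6, and the log2 change was 3.87 ± 0.55 (3.27 without steer 4). The gene was counted on chromosome 18 from 36784718 to 36798053, with none of its span shared.

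UGT1A6, which encodes a glucuronosyltransferase for small phenols, had 2.19, 1.47, 3.41 and 1.72 CPM in calves 1 to 4. Steers 1 to 4 had 15.9, 8.57, 23.4 and 61.3 CPM. Again no steer was as low as any calf, and steer 4 led. The ratio of the means (27.3 ± 23.5 over 2.20 ± 0.862 CPM; SD, n = 4 each) was 12.4, and the log2 change of 3.64 ± 0.60 became 2.86 without steer 4. The gene spans 123001 bases of chromosome 3 (113301530 to 113424530), since alternative first exons of this locus are spread over a long stretch. Reads in 19.7% of the span were dropped because it is shared with UGT1A1, DNAJB3 and 6 uncharacterised genes, so the forms of this enzyme family cannot be fully separated.

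ALDH3A1 went the other way. This aldehyde dehydrogenase, a receptor target in liver cells and a major protein of some surface epithelia, had 4.10, 4.62, 4.46 and 7.19 CPM in calves 1 to 4 and 1.15, 0.752, 0.373 and 0.386 CPM in steers 1 to 4. All steers were below all calves, and the calf mean (5.09 ± 1.418 CPM; SD, n = 4) was 7.66 times the steer mean (0.665 ± 0.368 CPM; SD, n = 4). The log2 change was -2.94 ± 0.45 and stayed between -3.34 and -2.72 with 1 library left out. The steer values rest on 20 to 46 counts. The gene was counted on chromosome 19 from 33878305 to 33886171, with none of its span shared.

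**Figure D2:**
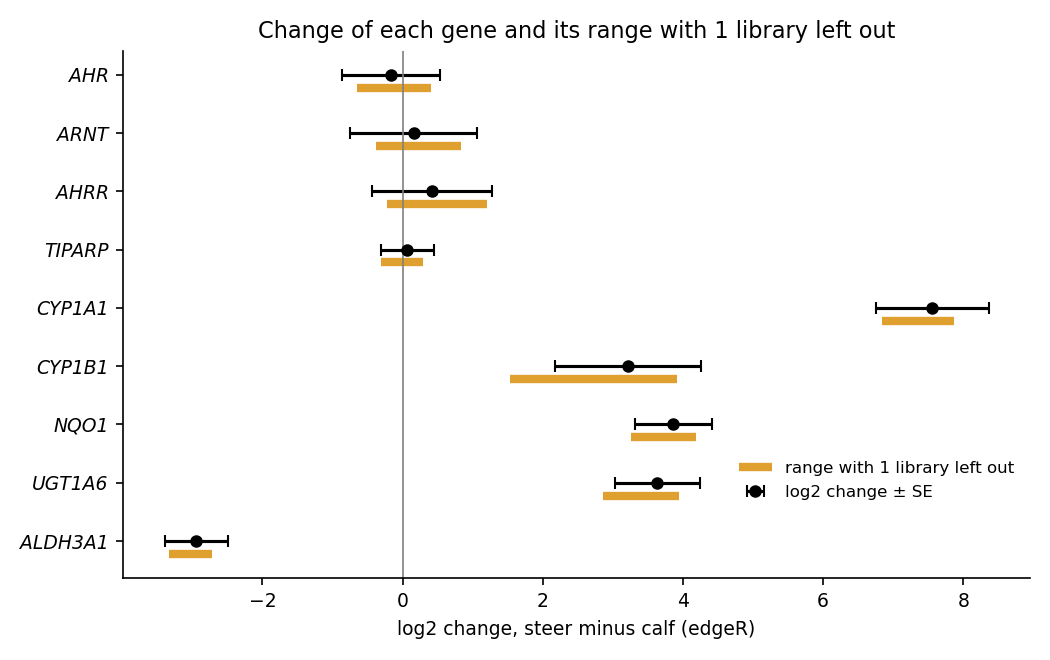
Log2 change of each gene, steer minus calf, from edgeR (black points, bars are ± SE) and its range when each library is left out in turn (orange). CYP1A1, NQO1 and UGT1A6 stay at 2.86 or above, ALDH3A1 stays below -2.72, and the 4 genes at the top take either sign.

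Levels were set against the part of each span not shared with another gene, the length over which reads were counted, and the order of the means was not the same in steers and calves. In steers CYP1A1 led with a mean of 13.97 CPM per kb, followed by NQO1 (5.44), TIPARP (0.577), CYP1B1 (0.325), UGT1A6 (0.276), ALDH3A1 (0.0845), ARNT (0.0479), AHR (0.0306) and AHRR (0.0075). The ranges over steers of CYP1A1 (3.93 to 30.5 CPM per kb) and NQO1 (1.45 to 11.01) overlapped, so these neighbours did not differ beyond their spread, and the same held for ARNT (0.00491 to 0.0936) and AHR (0.0100 to 0.0568). In calves ALDH3A1 (0.647) and TIPARP (0.551) led, then NQO1 (0.373), CYP1A1 (0.0741), ARNT (0.0432), CYP1B1 (0.0351), AHR (0.0345), UGT1A6 (0.0222) and AHRR (0.00558). Calf ranges of ALDH3A1 (0.521 to 0.915 CPM per kb), TIPARP (0.311 to 0.693) and NQO1 (0.290 to 0.492) overlapped from one to the next, whereas CYP1A1 (0.0411 to 0.107) lay below NQO1 in every calf. Introns are part of these lengths, so genes with long introns are set low.

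Among the steers, 5 of the 9 genes had the same highest and lowest animal. Steer 4 was highest for TIPARP, CYP1A1, CYP1B1, NQO1 and UGT1A6, and steer 2 was lowest for the same 5 genes. Of all tested genes, 19.9% had steer 4 highest and steer 2 lowest. AHR was highest in steer 4 too, but lowest in steer 1, and ARNT was highest in steer 3. AHRR was highest in steer 1 and lowest in steer 2, and ALDH3A1 was highest in steer 1 and lowest in steer 3. CYP1A1, CYP1B1 and TIPARP ranked the steers 4, 1, 3 and 2 from high to low, whereas NQO1 and UGT1A6 ranked them 4, 3, 1 and 2.

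Some ratios between genes in the same library are given as a description. NQO1 was 2.25 to 3.31 times UGT1A6 in the steers and 1.25 to 3.83 times in the calves, so this ratio overlapped between the ages. CYP1A1 over TIPARP was 0.0272 to 0.0340 in the calves and 2.16 to 6.87 in the steers. Within calves this ratio lay in a narrow range, although the level of CYP1A1 itself differed by 2.60 times between calves 1 and 4. The calf levels of CYP1A1 rest on 12 to 28 counts, with both mates of a pair counted. Nothing is therefore read from that narrow range. CYP1A1 over NQO1 ran from 0.0382 to 0.126 in calves and from 0.407 to 1.94 in steers, with steer 3 the lowest steer. These ratios compare counts and are not per length.

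The calves showed less spread in the genes that were high in steers. The SD of log2 CPM of CYP1A1 was 0.57 in calves and 1.43 in steers, against medians of 0.39 and 0.49 over all tested genes. Calf 4 was lowest of the calves for AHR, AHRR, TIPARP, CYP1A1 and CYP1B1 (26.9% of all tested genes had calf 4 lowest) and highest for NQO1 and ALDH3A1. Calf 1 was highest for TIPARP, CYP1A1 and CYP1B1. With 4 libraries per group, and the steers lying far apart for the leading targets, no correlation across libraries was computed.

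**Figure D3:**
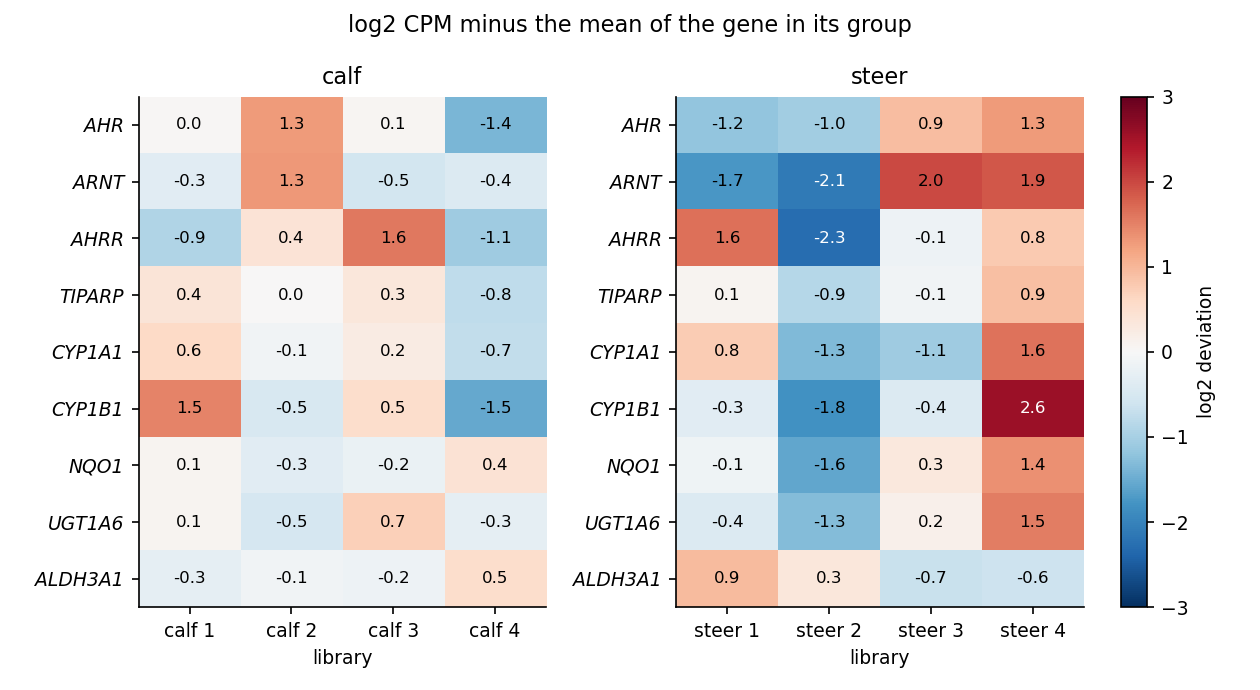
Log2 CPM of each gene in each library minus the mean of its group (calves left, steers right; red above, blue below the group mean). Steer 4 is above and steer 2 below the steer mean for the rows from AHRR to UGT1A6, and calf 4 is below the calf mean from AHR to CYP1B1.

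Tissue makeup also differed among the steers, and its values are set beside those of CYP1A1. The suprabasal marker sum was 2300, 1026, 1247 and 2847 CPM in steers 1 to 4, the same order of animals as CYP1A1. KRT13, PKP1 and PPL each had this order. EVPL and KRT10 were highest in steer 1 and lowest in steer 3, and KRT4 was highest in steer 2. Of all tested genes, 19.9% had steer 4 highest and steer 2 lowest. The smooth muscle sum was 56374, 109270, 51954 and 10884 CPM, highest in the steer with least CYP1A1 and lowest in the steer with most. The basal keratinocyte sum was 16333, 13396, 11216 and 8609 CPM, lowest in steer 4. This sum is mostly KRT15, KRT5 and KRT14, and its markers did not agree. KRT5, KRT14, KRT15, LAMB3 and DST were each lowest in steer 4. TP63, ITGA6, COL17A1 and LAMA3 were each highest there, and ITGB4 lay between. Between the groups the suprabasal sum ran against CYP1A1, as it was higher in every calf than in any steer. That calf sum is mostly KRT4 and KRT13, and PKP1 and KRT10 overlapped between the groups. Relative to the summed basal markers of the same library, the mean log2 difference between steers and calves was 7.38 for CYP1A1, 3.82 for NQO1, 3.61 for UGT1A6, 2.89 for CYP1B1 and -2.76 for ALDH3A1. The remaining genes lay between -0.37 (ARNT) and 0.53 (AHRR) on that scale. These are differences of mean log2 CPM and are not to be set against the edgeR log2 changes. Without the basal markers the same measure was 7.11 for CYP1A1, 3.55 for NQO1, 3.33 for UGT1A6 and 2.61 for CYP1B1. It was -3.04 for ALDH3A1, -0.64 for ARNT and 0.25 for AHRR, so relating to basal markers raised each value. Smooth muscle marker level (mean log2 CPM) was then added to the model. The fitted log2 changes were 8.94 for CYP1A1, 4.78 for NQO1, 4.93 for UGT1A6 and 4.73 for CYP1B1. They were 2.42 for AHRR, 0.88 for TIPARP, 0.38 for ARNT, 0.21 for AHR and -3.14 for ALDH3A1. That marker level was 7.05 to 8.26 in calves and 9.12, 10.6, 10.0 and 8.10 in steers 1 to 4. Only steer 4 overlapped the calves, so group and covariate are largely confounded and these fits lean on that animal.

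**Figure D4:**
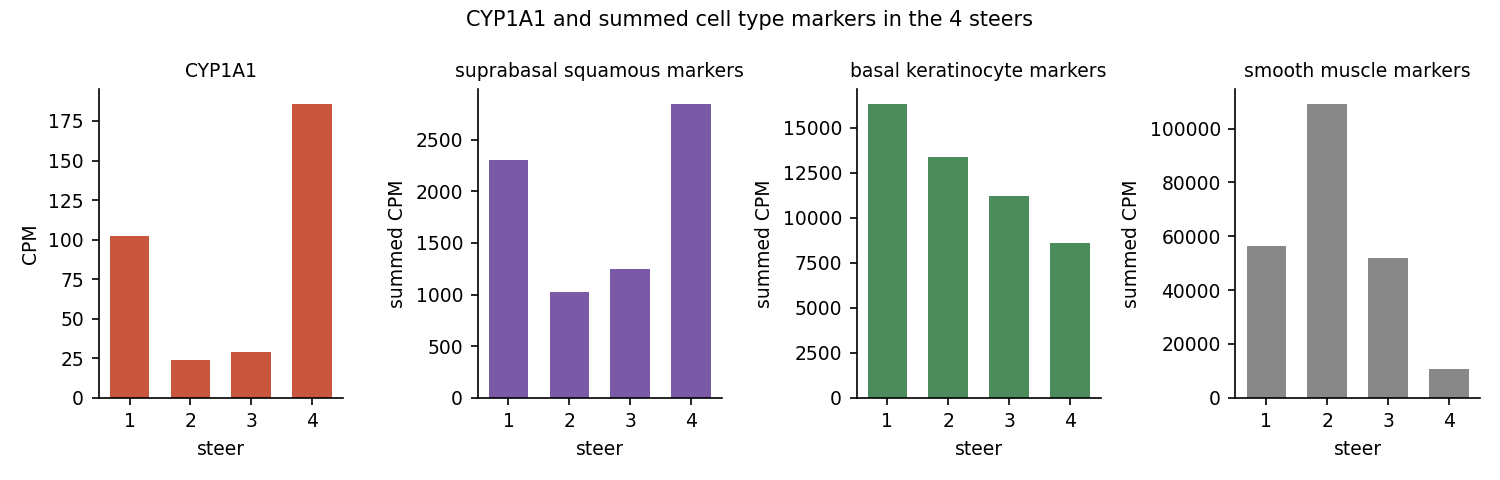
CPM of CYP1A1 and summed CPM of suprabasal squamous, basal keratinocyte and smooth muscle markers in steers 1 to 4 (bars, linear axes from 0). Steers 1 and 4 have the most CYP1A1 (102.1 and 185.9 CPM) and the most suprabasal markers, and steer 4 has the least smooth muscle marker signal (10884 CPM).

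The genes whose pattern over the 8 libraries was closest to each member were found by the root mean square difference of centred log2 CPM among genes with a mean of at least 1 CPM. This measure takes in the difference between steers and calves on which the genes were chosen, so closeness is given as a description. For CYP1A1 they were S100Z (0.84), LOC104972306 (0.97), MGC157368 (1.05), KRT6C (1.05) and CDHR4 (1.07), where CYP1A1's own root mean square about its mean was 3.68. NQO1 was closest to CMBL (0.43), UGT1A6 (0.45) and RGS1 (0.47), and UGT1A6 to CA12 (0.28), SLC16A1 (0.41) and RGS1 (0.42). CYP1B1 was closest to LYPD5 (0.64), SULT1B1 (0.67) and PIP (0.77), and ALDH3A1 to AZIN2 (0.34), FAM169A (0.35) and PLAG1 (0.35). AHR was closest to B4GALT1 (0.26), RSAD2 (0.37) and CASP2 (0.38), and ARNT to PLPP3 (0.68), KDR (0.75) and AHR (0.76). AHRR was closest to LOC101906045 (0.63), BMP2 (0.72) and SEPSECS (0.75), and TIPARP to SELENOI (0.16), MCC (0.19) and LOC112449302 (0.20).

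The wider pathway was examined in 5 lists of 88 genes, with p-values adjusted over all tested genes in edgeR's quasi-likelihood test. These lists too were chosen with earlier results of these data known. Their calls and p-values therefore describe this contrast and are not an independent test of the pathway. The receptor's chaperones, co-activators and alternative partner did not pass the test. Of 16 genes, 15 were tested (the span of NRIP1, a co-regulator, is wholly shared) and 0 passed, with a median log2 change of 0.06 against 0.04 over all tested genes. At an unadjusted p under 0.05 there were 2 genes, and DESeq2 and limma-voom each called 2, HSP90AB1 and SMARCA4, a chromatin remodeller named here after its values were seen. HSP90AB1, the abundant HSP90 chaperone of the complex, had 1289 ± 91 CPM in calves and 776 ± 153 CPM in steers (log2 change -0.73 ± 0.24, adjusted p = 0.0628), and it passed without steer 4 (-0.84), when the list had 2 calls. ARNT2, the sister of ARNT, had 2.60 ± 0.577 and 1.55 ± 0.777 CPM (log2 change -0.75 ± 0.45, adjusted p = 0.293).

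Other genes described as responsive to the receptor went in both directions. Of 20 listed, 16 were tested, 3 rose and 3 fell, and the median log2 change was -0.09 (over all tested genes, 7.7% were higher, 9.16% lower and the median was 0.04). Counts under UGT1A1, the bilirubin glucuronosyltransferase of the UGT1A6 locus, rose (71.3 ± 43.2 CPM in calves, 326 ± 100 CPM in steers, a log2 change of 2.19 ± 0.50, adjusted p = 0.016). They come only from the 649 bases beyond the end of UGT1A6, as 95.2% of the UGT1A1 span is shared. This rise cannot be told apart from a rise of other forms of the locus, UGT1A6 included. The cell cycle inhibitor CDKN1B rose from 23.96 ± 3.58 to 42.3 ± 10.9 CPM (0.82 ± 0.23, adjusted p = 0.0334) and the adhesion adaptor NEDD9 from 18.0 ± 2.54 to 34.9 ± 14.6 CPM (0.95 ± 0.28, adjusted p = 0.0423).

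CYP2S1, an epithelial P450 also known as a receptor target, fell from 22.5 ± 4.25 to 5.14 ± 0.868 CPM (-2.13 ± 0.23, adjusted p = 0.000485). HES1, a repressor downstream of Notch, fell from 92.4 ± 28.5 to 32.8 ± 8.86 CPM (-1.50 ± 0.28, adjusted p = 0.007). SCIN, an actin-severing protein, fell from 2.42 ± 1.69 to 0.131 ± 0.134 CPM (-4.11 ± 0.98, adjusted p = 0.019). It had 2, 0, 16 and 10 counts in steers 1 to 4, under the floor of 3 counts in steers 1 and 2. Calf 4, the lowest calf, had 16 counts (0.335 CPM, against 0.298 CPM in steer 3). The calls of CDKN1B and NEDD9 were each lost under 8 of 19 alternatives and that of SCIN under 5, the log2 change of SCIN was -4.84 without steer 3, and without calf 1 all 3 calls were lost, leaving 3 calls on the list. CYP1A2, the close relative of CYP1A1, had no count in 7 libraries and 2 counts in steer 4, and was not tested. GSTA1, a glutathione transferase, had 106 ± 103 and 538 ± 334 CPM (2.34 ± 0.98, adjusted p = 0.134).

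Of 21 enzymes that make or remove tryptophan-derived ligands, 15 were tested, 3 rose, 1 fell and 11 did not pass, with a median log2 change of -0.05. Over all tested genes 16.9% passed. KYNU, which cleaves kynurenine and thereby removes a receptor ligand, rose from 0.586 ± 0.229 to 10.2 ± 6.94 CPM (4.12 ± 0.58, adjusted p = 0.0018). The monoamine oxidase MAOA rose from 18.2 ± 3.33 to 136 ± 23.2 CPM (2.89 ± 0.22, adjusted p = 0.000109) and MAOB from 1.21 ± 0.955 to 5.36 ± 2.33 CPM (2.14 ± 0.60, adjusted p = 0.0376). DDC, the aromatic amino acid decarboxylase, fell from 1.04 ± 0.580 CPM to 0.0213 ± 0.0253 CPM, at or under the floor of 3 counts in every steer (adjusted p = 0.00374). IDO1, which makes kynurenine from tryptophan, had 3.07 ± 3.42 and 2.12 ± 1.67 CPM (adjusted p = 0.813), and the phenol sulfotransferase SULT1A1 had 336 ± 87 and 502 ± 218 CPM (adjusted p = 0.27). The call of MAOB was lost under 8 of 19 alternatives, and its log2 change was 2.80 without calf 2, while KYNU, MAOA and DDC passed in every fit that tested them.

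NQO1 is shared with the oxidative stress factor NRF2. Of 19 genes listed for NRF2, all tested, 5 rose, 0 fell and 14 did not pass, and the median log2 change was 0.86. Over all tested genes 7.7% were higher and 9.16% lower, with a median of 0.04. The subunits of glutamate cysteine ligase, the first step of glutathione synthesis, both rose, GCLC from 8.07 ± 2.40 to 32.7 ± 24.3 CPM (2.02 ± 0.50, adjusted p = 0.0218) and GCLM from 7.06 ± 1.91 to 22.3 ± 7.499 CPM (1.66 ± 0.31, adjusted p = 0.00628). ME1, a source of NADPH, rose from 34.3 ± 13.9 to 151 ± 43.6 CPM (2.14 ± 0.33, adjusted p = 0.00274), and FTH1, the ferritin heavy chain, from 1549 ± 335 to 5362 ± 3166 CPM (1.79 ± 0.47, adjusted p = 0.0269). SLC7A11, the cystine importer, rose from 0.0571 ± 0.0884 CPM, with no count in calves 2 and 4, to 0.845 ± 0.158 CPM (adjusted p = 0.023).

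NRF2 itself (NFE2L2) had 112 ± 12 and 110 ± 37 CPM (-0.02 ± 0.25, adjusted p = 0.967). Its inhibitor KEAP1 had 88.9 ± 11.95 and 101 ± 18 CPM (adjusted p = 0.582), and TALDO1 of the pentose phosphate pathway 309 ± 86 and 244 ± 35 CPM (adjusted p = 0.407). Counts on this list were 3 without calf 1 and without calf 3, and 9 with DESeq2, and 1 lower call appeared with library size only, with the span slope and with calf 2 and steer 4 left out. The log2 change of GCLC was 1.39 without steer 4. The call of FTH1 was lost in 7 of 19 alternatives, that of SLC7A11 in 5 and that of GCLC in 3.

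Other factors of the receptor's own family gave 1 call. Of 12 listed, 9 were tested, and the median log2 change was 0.45 (16.9% of all tested genes were called). HIF3A, a hypoxia-inducible factor subunit that also pairs with ARNT, fell from 52.8 ± 52.6 to 2.28 ± 0.936 CPM (-4.54 ± 0.68, adjusted p = 0.00226, and -3.55 without calf 2, the highest calf, when the circadian factor NPAS2 was a further call). EPAS1 had 23.9 ± 11.2 and 32.5 ± 25.4 CPM (adjusted p = 0.601). HIF1A had 0.345 ± 0.331 and 0.936 ± 0.888 CPM (adjusted p = 0.31). Its counts come from the part of its span left after the 54.5% shared with LOC107132877 was dropped.

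**Figure D5:**
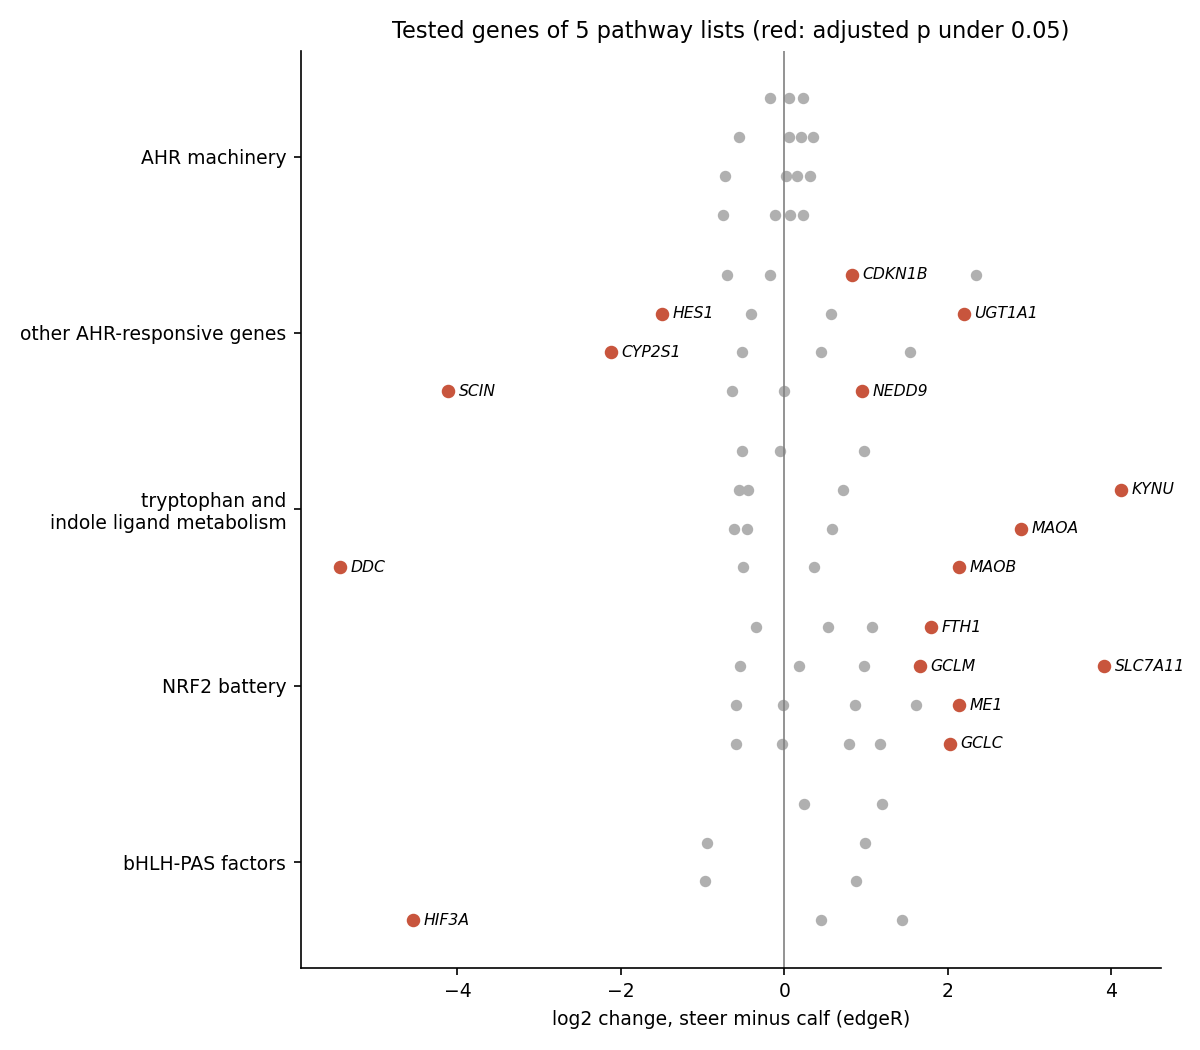
Log2 change, steer minus calf, of every tested gene of the 5 pathway lists (points, stacked vertically only to separate them), with genes past an adjusted p of 0.05 in red and named. The NRF2 list holds 5 called genes, which lie to the right of 0 in this fit, and the list of receptor machinery holds none.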

How the data were processed

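The study measured rumen RNA of 4 newborn calves and 4 adult steers, 1 library per animal, as listed in the labels. The values are raw counts of reads for each gene symbol, as deposited. They were made by the authors with featureCounts 2.0.2, per the file headers, with introns inside the counted spans and without a strand option. Reads in more than 1 gene were dropped, and both mates of a pair count, so 86.9% to 89.0% of the counts from 1 to 10 were even. The submitters' processing notes also name Trimmomatic 0.39, STAR 2.7.11a and DESeq2 1.42.0. A genome build was not given in the sources used, so positions are the file's own, and symbols and chromosome numbers come from a RefSeq table (ARS-UCD2.0), in which all 9 genes matched.

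Counts were fitted in edgeR 4.0.16 (R 4.3.3) with filterByExpr by group, TMM scaling and a robust quasi-likelihood fit, and p-values were Benjamini-Hochberg adjusted over 16326 genes at a threshold of 0.05. The SE is the log2 change over the square root of F. The common biological coefficient of variation was 41.8%. Libraries of 1 group differed by a chi-square per degree of freedom of at least 107, and none was a repeat. Alternatives were DESeq2 1.42.0, limma-voom (limma 3.58.1), other scalings and filters, the replicate number as a block, covariates and left-out libraries.

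The 9 genes and all lists were chosen with earlier results of these data known. The text names all 9 genes, up to 4 called genes per list and direction, the highest gene of each list that was not called, genes set by name (ARNT2, CYP1A2, UGT1A1, NFE2L2, KEAP1, IDO1 and HIF1A), and the closest patterns among genes with a mean of at least 1 CPM. GCLM, SMARCA4 and NPAS2 fell outside this rule and were named after their values were seen. A further gene set by name is not reported here. Floors of 3 counts cover counting error only, whereas the SD and SE values include differences between animals.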

Additional observations from a re-analysis of the deposited data

Results flagged for a closer look

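Within a group of 4 libraries, 8 of the 71 gene groups examined held 1 library set apart from the other 3 by a gap past Dixon's 95% limit, which is a size that chance gives in about 1 in 20 groups. Among the 9 genes there were 3. ARNT was 2.074 CPM in calf 2 and 0.568 to 0.652 CPM in the other calves. CYP1B1 was 5.488 CPM in steer 4 and 0.251 to 0.725 CPM in the other steers, so its mean in steers rests on that animal. ALDH3A1 was 7.195 CPM in calf 4 and 4.10 to 4.62 CPM in the other calves, which leaves every calf above every steer.

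The other 5 were in the pathway lists. CYP1A2 was 0.03507 CPM in steer 4, from 2 counts, and 0 in the other steers, where any count in 1 library passes the limit. HIF3A was 131.3 CPM in calf 2 and 19.97 to 33.6 CPM in the other calves. IDO1 was 4.619 CPM in steer 3 and 1.06 to 1.47 CPM in the other steers. NEDD9 was 56.7 CPM in steer 4 and 25.4 to 28.9 CPM in the other steers. TALDO1 was 180.9 CPM in calf 2 and 340 to 361 CPM in the other calves.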

How the results depend on the processing

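Of the 9 genes, 4 to 5 were past the threshold under every alternative run. The fifth was CYP1B1, with DESeq2, with the smooth muscle covariate and without steer 2. CYP1A1, NQO1 and UGT1A6 stayed higher and ALDH3A1 lower in steers in all 20 alternatives run for each, and with calf 2 and steer 4 left out together the log2 changes were 6.78, 3.16, 2.71 and -2.80, with 1.32 for CYP1B1. The count over all genes went from 2752 to 1831 with the replicate block and ran from 1734 (without calf 1) to 3257 (without steer 4) with 1 library left out. Same-numbered calves and steers did not deviate together (r of 0.17, 0.08, -0.08 and -0.23 across genes), so the numbers are taken as names only. With library size alone, the share of called genes that were higher in steers was 34.9% in place of 45.7%, and the median log2 change moved by -0.11.

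The machinery list, with 0 calls, had 1 with library size only, relative log expression scaling, a minimum mean of 1 CPM or the smooth muscle covariate, and 2 with DESeq2, limma-voom, calf 2 and steer 4 left out together, or the span slope, with 0 to 2 when 1 library was left out. The other responsive genes had 6 calls and 3 to 7 with 1 library left out. The tryptophan list had 4 (3 higher, 1 lower), then 6 (3 higher, 3 lower) with the smooth muscle covariate, and 3 to 4 with 1 library left out. The NRF2 list had 5, then 9 with DESeq2, 8 with the smooth muscle covariate and 9 with the span slope (8 higher, 1 lower), and 3 to 7 with 1 library left out. The bHLH-PAS list had 1, then 2 with the smooth muscle covariate or the span slope, and 1 to 2 with 1 library left out. The span slope was added after seeing the data, and the cause of these differences was not tested. No direction of a called result was reversed. Levels under 1 CPM, as of AHRR, ARNT and CYP1B1, rest on few counts and limit what differences can be seen.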
